A study of Mus musculus with 12 samples.

Results

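The genes described here encode the machinery by which macrophages recognise and take up dying cells and modified lipoproteins. They were chosen by name, with earlier results of these data known. They are the rows of the deposited count table for Mfge8, Gas6, Pros1, Mertk, Axl, Cd36, Scarb1, Msr1, Marco and Stab1. These are 10 of the 55586 genes in the table, and all 10 were among the 13474 genes that passed the filter on low counts. RNA was sequenced from peritoneal macrophages of the mouse, phagocytes of the abdominal cavity, grown in serum-containing medium, in 12 libraries that form 4 groups of 3. The control libraries had neither agent, the IFN-γ libraries had interferon gamma (IFN y in the labels), the Remodelin libraries had Remodelin hydrobromide, and the combined libraries had Remodelin hydrobromide followed by IFN-γ. Remodelin is an inhibitor of NAT10, the enzyme that writes N4-acetylcytidine in RNA, and by its title the series asks what lower levels of the mark in macrophages do in hepatocellular carcinoma. No dose, time, mouse strain or age is given in the labels used here, which also do not say whether libraries of 1 group derive from separate animals or cultures. The p-values thus reflect the spread between libraries alone, and that spread may be technical.

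Dying cells expose phosphatidylserine on their surface, and phagocytes read it either directly or through secreted bridging proteins. MFG-E8, the product of Mfge8, links phosphatidylserine to the αv integrins of the phagocyte. GAS6 and protein S, the product of Pros1, link it to the receptor tyrosine kinases of the TAM family, which include MERTK and AXL. Scavenger receptors bind oxidised or acetylated lipoproteins, bacteria and cell debris. CD36 and SR-B1, the product of Scarb1, are class B receptors that also carry lipids across the membrane, the products of Msr1 and Marco are class A receptors with collagen-like stalks, and stabilin-1, the product of Stab1, is an endocytic receptor that also binds phosphatidylserine. Resident peritoneal macrophages are known for clearing apoptotic cells without inflammation. The labels used here do not say whether the cells sequenced were resident ones.

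The start-site regions of Mfge8 and Cd36 are shown because these genes were the most abundant of the 10 and their group means ran in opposite directions. The 300 bases run from 250 before to 50 after the annotated start in RefSeq, on the minus strand of build GRCm38.p6. Capitals mark the GC box, GGGCGG on either strand, the letters that the factor SP1 is known to bind.
Mfge8, chr7:79149011-79149310: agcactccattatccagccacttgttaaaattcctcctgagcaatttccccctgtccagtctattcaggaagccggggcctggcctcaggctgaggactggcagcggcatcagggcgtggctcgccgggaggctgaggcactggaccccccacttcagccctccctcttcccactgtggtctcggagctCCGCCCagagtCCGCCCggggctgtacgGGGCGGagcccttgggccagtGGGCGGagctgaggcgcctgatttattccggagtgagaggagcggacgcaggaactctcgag
Cd36, chr5:17835847-17836146: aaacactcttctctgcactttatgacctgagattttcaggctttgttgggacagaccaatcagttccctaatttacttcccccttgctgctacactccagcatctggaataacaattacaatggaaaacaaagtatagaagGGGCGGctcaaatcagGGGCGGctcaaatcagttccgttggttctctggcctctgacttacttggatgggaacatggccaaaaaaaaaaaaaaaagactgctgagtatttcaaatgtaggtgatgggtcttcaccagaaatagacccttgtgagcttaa
The Mfge8 region held 4 GC boxes and 17 CpG dinucleotides and was 64.3% G and C, above 80.4% of the 32851 start-site regions in the RefSeq table. The Cd36 region held 2 GC boxes within the same short repeated stretch and 3 CpG dinucleotides, and was 43% G and C, above 16.5% of all regions. The median over all regions was 52.7%. Which start site these cells used is not known from the data.

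Of the 10 genes, 8 had an entry in that table, and Msr1 and Scarb1 had none. At least 1 GC box was present in 6 of the 8 (Mertk, Axl, Gas6, Pros1, Mfge8 and Cd36), against 35.7% of all regions. The interferon gamma activated site GAS (TTCNNNGAA) was found in the Pros1 region alone, against 8.3% of all regions. The interferon-stimulated response element ISRE (GAAANNGAAA, found in 3.44% of all regions), the TATA box (TATAAA, 13.6%) and the sterol regulatory element (TCACNCCAC, 1.24%) were in none of the 8. The nuclear receptor repeats DR4 (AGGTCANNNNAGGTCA, 0.0152%) and DR1 (AGGTCANAGGTCA, 0.0396%) were also in none. Both strands were searched for exact letters, and a palindrome such as GAS was counted once. A match is a description of these letters in this window only, as is the lack of one.

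Library totals ran from 15917454 to 19418665 counts, with 17353 to 18175 genes detected, and 3 counts, the floor used here, corresponded to 0.152 to 0.192 CPM, the count scaled to the TMM-adjusted library size. It covers counting error alone. Combined library 1 and Remodelin library 1 lay farthest from their group means over all tested genes, at a root mean square of 0.387 and 0.373 on the log2 scale, against 0.219 for the closest library, IFN-γ 1. Deviations of single libraries from the mean of all followed the GC content of genes, with Spearman correlations across genes of 0.534 and 0.55 in control 2 and 3 and -0.69 in combined library 1. Genes rich in G and C were thus relatively high in those control libraries and low in that combined library. The 9 macrophage markers all passed the filter, with a summed level of 15120 to 25380 CPM across the 12 libraries, and 0 of them were called between libraries with and without Remodelin.

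In control cells the length-scaled levels, FPKM, the deposited values divided by gene length and library size, placed Mfge8 first of the 10 at 548 ± 69.7 (SD, n = 3 libraries). This put it above 99.1% of the 13474 tested genes, and Cd36 at 205 ± 29.1 FPKM was above 97.7%. The bridging protein gene Gas6 followed at 28.3 ± 0.886 FPKM. Scarb1 (13.4 ± 1.12 FPKM), the receptor kinase gene Axl (13.4 ± 0.243) and Msr1 (12.3 ± 0.853) lay close together. Scarb1 and Axl overlapped in the control libraries, Axl was above Msr1 in all 3 of them, and over the 12 libraries Scarb1 was above Axl in 6 and Axl above Msr1 in 4. The order of these 3 genes thus differed between libraries. Mertk was at 6.8 ± 2.16 FPKM, Pros1 at 4.42 ± 0.505, Stab1 at 4.02 ± 0.685 and Marco at 1.85 ± 0.603. Pros1 and Stab1 overlapped in the control libraries but were in that order within each of the 12 libraries. Gas6 was above Scarb1 and Msr1 above Mertk in 12 of 12 libraries, Mertk above Pros1 in 11, and Stab1 above Marco in 10. Mfge8 was above Cd36 in 10 of 12 libraries, the exceptions being Remodelin 3 and combined library 1.

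**Figure D1:**
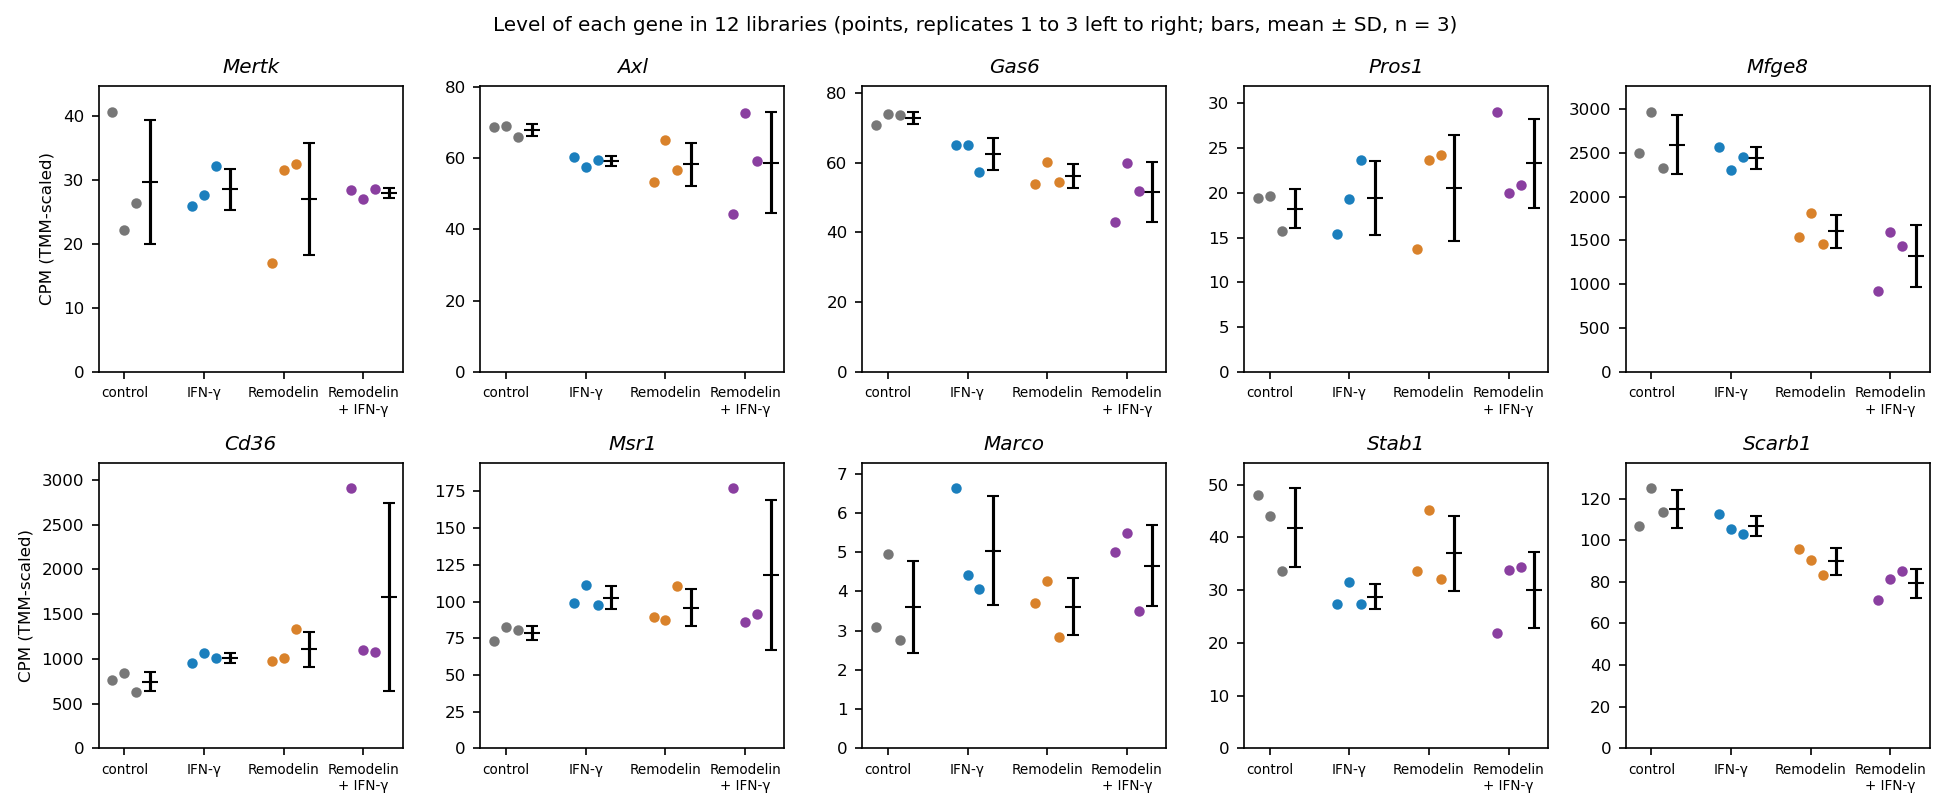
Level of each of the 10 genes in CPM (vertical axis, from 0) in the 12 libraries. Points are libraries in the order of replicates 1 to 3, grouped as control, IFN-γ, Remodelin and both, and bars are the mean ± SD (n = 3). Mfge8 lies between 2309 and 2967 CPM in the 6 libraries without Remodelin and between 921.8 and 1811 in the 6 with it, and Cd36 stands at 2905 CPM in combined library 1.

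Mfge8 fell with Remodelin, and it was the largest change among the 10 genes. Its level was 2494, 2967 and 2323 CPM in the control libraries and 2565, 2309 and 2451 CPM with IFN-γ. With Remodelin it was 1540, 1811 and 1457 CPM, and with both agents it was 921.8, 1596 and 1439 CPM. Each library with Remodelin was below each library without it. Averaged over both levels of IFN-γ, the log2 fold change was -0.79 ± 0.13 (SE), a change of -42.2%, with an interval of ±2 SE from -1.06 to -0.52 and an adjusted p = 0.00266 (edgeR quasi-likelihood test, Benjamini-Hochberg over all tested genes). In this average, 2 of the 10 genes were called under 0.05, both lower (Mfge8 and Scarb1), and 0 higher. Over all tested genes 4.8% were called lower and 2.24% higher. At an unadjusted p under 0.05 there were 4 of 10, against 26.1% of all genes. The 10 genes had a median log2 fold change of -0.07, and all tested genes 0.03. The 6 libraries with Remodelin lay wholly below the 6 without it for 2 of the 10, against 3.42% of all genes, and wholly above for 0, against 1.24%.

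In these bulk libraries, less RNA per cell and fewer cells of a type with high levels cannot be told apart. The transcript of Mfge8 has a GC content of 56.2%, above the median tested gene at 49.8%, and with the GC trend of each library removed its average log2 fold change was -0.63 (adjusted p = 0.00184). Without combined library 1, its lowest library, the Mfge8 value was -0.66, and with Remodelin 1 left out as well it was again -0.66. Some markers of mesothelium, the lining of the peritoneal cavity, were lower in the same libraries. All 8 passed the filter, and 3 were called lower (Upk3b -1.80, Upk1b -0.56 and Krt19 -0.71), while Msln (0.64), Krt18 (0.61) and Krt8 (0.43) had positive values that were not called. Wt1 (-0.24) and Lrrn4 (-0.39) had negative values that were not called. The summed level of the 8 was 101 to 125 CPM in control, 92.07 to 102.1 with IFN-γ, 52.91 to 66.61 with Remodelin and 53.02 to 72.08 with both. Upk3b gave the most to it in the mean of the 12 libraries. The neutrophil list, of which 5 of 8 passed, summed to 69.34 to 83.4 CPM in control, 70.53 to 75.34 with IFN-γ, 55.86 to 57.27 with Remodelin and 53.27 to 55.43 with both. In that list 2 genes were called lower, Mmp8 (-1.30) and Mmp9 (-1.24), while S100a8 (-0.21), Csf3r (-0.04) and Cxcr2 (0.30) were not called. S100a8 and Csf3r averaged 20.36 and 23.71 CPM over the 12 libraries. Ly6g, between 0 and 0.0578 CPM, Retnlg and S100a9 did not pass the filter. Fibroblast markers, 7 of 7 passing, had 1 called lower and summed to 432.6 to 699.4 CPM in control, 370.3 to 449.1 with IFN-γ, 298.6 to 527.2 with Remodelin and 359.8 to 493.6 with both, so that these groups overlapped. The B cell (5 of 8 passing), T cell (1 of 7), dendritic cell (2 of 7), endothelial (2 of 6) and mast cell (2 of 6) lists had 0 calls by edgeR. Of the endothelial list, Emcn was at 0 but Vwf was at 44.02 to 129 CPM and gave the most to the sum. That sum was 91.81 to 112.8 CPM in control, 75.55 to 82.92 with IFN-γ, 81.1 to 133.1 with Remodelin and 45.71 to 96.19 with both. The mast cell sum was low throughout, but at 1.253 to 3.172 CPM in the 6 libraries with Remodelin it lay wholly below the 3.206 to 4.759 CPM of the 6 without it. The part of any of these cell types in the result was not tested.

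The other bridging protein genes were not called. Gas6, which binds all TAM receptors, was at 70.72, 73.95 and 73.52 CPM in control, 65.15, 65.09 and 57.25 with IFN-γ, 53.81, 60.04 and 54.44 with Remodelin, and 42.84, 59.92 and 51.72 with both. The control libraries stood above all others, while the IFN-γ libraries overlapped those with Remodelin. The average log2 fold change with Remodelin was -0.33 ± 0.10 (adjusted p = 0.0653) and did not pass the threshold. DESeq2 called Gas6 (adjusted p = 0.0407), while removal of the GC trend gave -0.15 (adjusted p = 0.255), the transcript having 56.6% G and C. Pros1, an anticoagulant of plasma as well as a TAM ligand, was at 19.39, 19.6 and 15.69 CPM in control, 15.4, 19.28 and 23.64 with IFN-γ, 13.71, 23.65 and 24.22 with Remodelin, and 29.04, 19.99 and 20.85 with both. All groups but control and the combined libraries overlapped each other, and the average log2 fold change was 0.22 ± 0.16 (adjusted p = 0.393). With the GC trend removed the Pros1 value was -0.00, and without combined library 1 it was 0.15.

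The receptor kinase genes showed no call. Mertk, the TAM receptor of most resident macrophages, was at 40.7, 22.15 and 26.5 CPM in control, 25.92, 27.65 and 32.17 with IFN-γ, 16.98, 31.66 and 32.6 with Remodelin, and 28.41, 27.09 and 28.6 with both. Control 1 was the highest library and Remodelin 1 the lowest, and the average log2 fold change of -0.08 ± 0.17 (interval -0.42 to 0.25, adjusted p = 0.777) turned to 0.19 without these 2 libraries. Axl, the receptor that cytokines and interferons induce, was at 68.75, 68.9 and 65.97 CPM in control and 60.34, 57.57 and 59.31 CPM with IFN-γ. With Remodelin it was at 53.3, 65 and 56.47 CPM, and with both at 44.21, 72.6 and 59.23 CPM. Control stood above the IFN-γ and the Remodelin libraries, the combined libraries spanned the range of all others, and the average log2 fold change with Remodelin was -0.11 ± 0.12 (interval -0.35 to 0.12, adjusted p = 0.541). Without Remodelin 1 and combined library 1 that of Axl was 0.02, and with the GC trend removed 0.01.

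**Figure D2:**
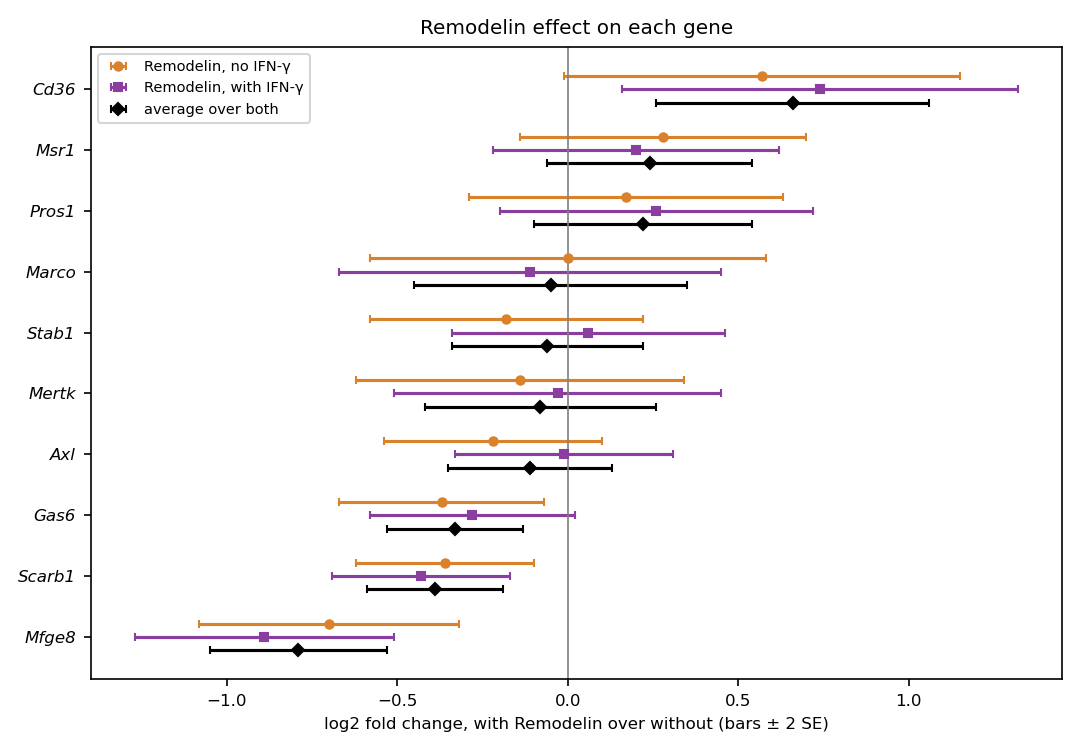
Log2 fold change of each of the 10 genes with Remodelin over without it (horizontal axis), without IFN-γ (circles), with IFN-γ (squares) and averaged over both (diamonds), with bars of ±2 SE. Mfge8 lies at -0.70, -0.89 and -0.79, Cd36 at 0.57, 0.74 and 0.66, and the bars of Mertk, Axl, Pros1, Msr1, Marco and Stab1 span 0 in all 3 comparisons.

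Scarb1, the receptor that takes up cholesteryl esters from high-density lipoprotein, fell with Remodelin by a smaller amount than Mfge8. It was at 106.7, 124.9 and 113.7 CPM in control, 112.4, 105.6 and 102.8 with IFN-γ, 95.96, 90.66 and 83.17 with Remodelin, and 71.5, 81.37 and 85.21 with both. The libraries with Remodelin were all below those without it. Its average log2 fold change was -0.39 ± 0.10, a change of -23.8% (edgeR adjusted p = 0.022). The Scarb1 call was lost without control 2 (adjusted p = 0.077), IFN-γ 1 (0.0795), IFN-γ 2 (0.06), Remodelin 3 (0.0649) or combined library 1 (0.0527), and with no filter on low counts (0.0648). With the GC trend removed it was -0.44 (adjusted p = 0.011), and the transcript has 48.5% G and C.

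Cd36, the other class B receptor, went the other way in level and rested in part on 1 library. It was at 759, 844.6 and 629.2 CPM in control, 958.9, 1066 and 1013 with IFN-γ, 974.6, 1010 and 1333 with Remodelin, and 2905, 1097 and 1076 with both. The control libraries were the lowest 3 of the 12, the IFN-γ and Remodelin libraries overlapped, and combined library 1 stood far above the other 11, of which Remodelin 3 was the highest. The average log2 fold change of Cd36 was 0.66 ± 0.20 (57.6%, interval 0.25 to 1.06), with an adjusted p = 0.0585, short of the threshold. Without combined library 1 it was 0.37 (adjusted p = 0.0764), and without Remodelin 1 as well it was 0.40 (adjusted p = 0.0165). DESeq2 gave 0.67 (adjusted p = 0.0183), and edgeR with no filter on low counts gave 0.68 (adjusted p = 2.63e-05). Cd36 was called in 7 of 21 alternatives. The Cd36 transcript has 38.4% G and C, and removal of the GC trend gave 0.39 (adjusted p = 0.0853).

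Msr1, the class A receptor of modified lipoproteins, was at 73.1, 82.53 and 80.47 CPM in control, 98.65, 111.4 and 97.55 with IFN-γ, 89.55, 87.72 and 110.3 with Remodelin, and 177, 86.27 and 91.27 with both. As for Cd36, which has the same transcript GC content of 38.4%, the control libraries were lowest and combined library 1 highest. The average Remodelin value was 0.24 ± 0.15 (adjusted p = 0.308), 0.07 without combined library 1 and -0.00 after removal of the GC trend. Marco, a receptor for bacteria and particles, was the least abundant gene, with 49 to 117 counts a library. It was at 3.088, 4.941 and 2.769 CPM in control, 6.622, 4.411 and 4.065 with IFN-γ, 3.715, 4.268 and 2.832 with Remodelin, and 4.996, 5.48 and 3.495 with both. These groups all overlapped, and the average Remodelin value was -0.05 ± 0.20 (adjusted p = 0.885). Stab1 was at 47.94, 43.98 and 33.55 CPM in control, 27.39, 31.5 and 27.42 with IFN-γ, 33.69, 45.1 and 32.08 with Remodelin, and 21.79, 33.87 and 34.36 with both. Its average Remodelin value was -0.06 ± 0.14 (adjusted p = 0.815). The IFN-γ libraries were the tightest group for Stab1 and lay wholly below control.

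**Figure D3:**
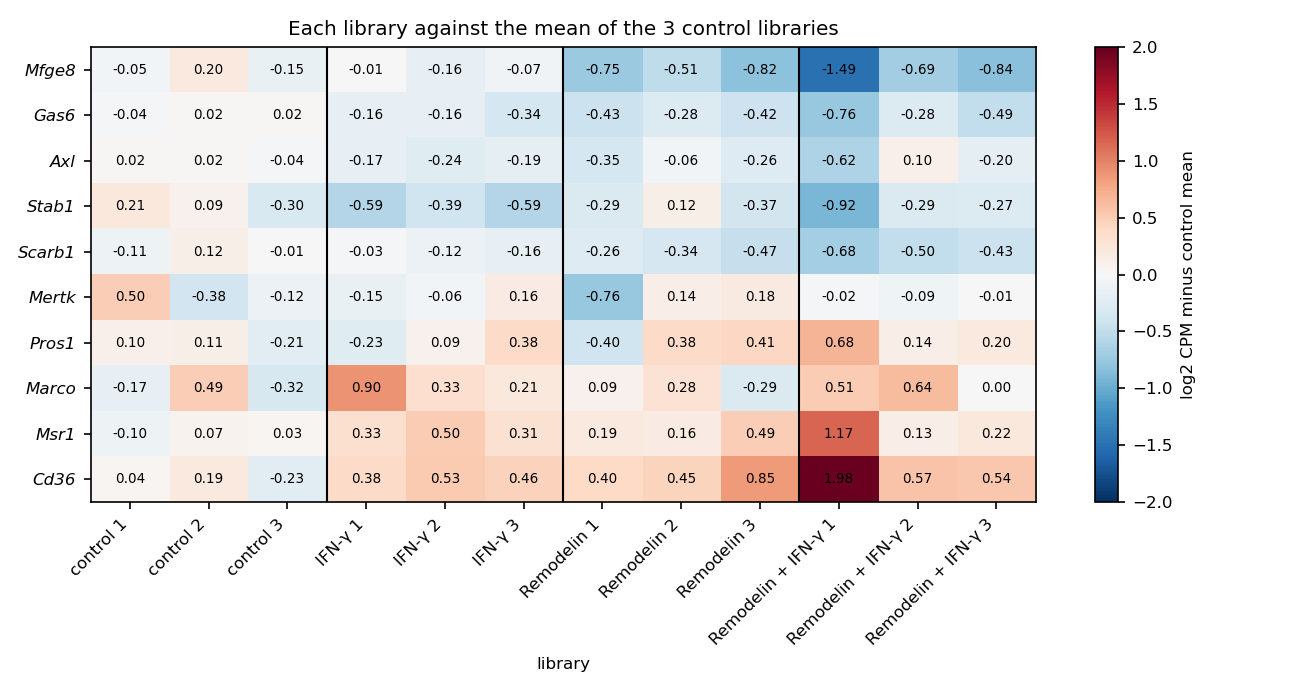
Log2 CPM of each of the 10 genes (rows) in each of the 12 libraries (columns) minus the mean of the 3 control libraries; red is higher, blue is lower, and the number in each cell is the difference. Combined library 1 holds both the lowest Mfge8 level (921.8 CPM) and the highest Cd36 level (2905 CPM).

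Taken without IFN-γ, Remodelin against control gave 0 called genes of the 10, against 0.846% of all genes. By edgeR's quasi-likelihood test 3 of the 10 (Mfge8, Scarb1 and Gas6) had an unadjusted p under 0.05, against 12.7% of all genes. DESeq2 called 1 of the 10, Mfge8, and 269 of all 13474 genes. Mfge8 was at -0.70 ± 0.19 (adjusted p = 0.103), Scarb1 at -0.36 ± 0.13 (0.271), Gas6 at -0.37 ± 0.15 (0.29) and Cd36 at 0.57 ± 0.29 (0.422) on the log2 scale. The Remodelin libraries lay wholly below control for 4 of the 10 (Axl, Gas6, Mfge8 and Scarb1), against 10.3% of all genes, and wholly above for 2 (Cd36 and Msr1), against 6.09%. Removal of the GC trend gave 0.31 for Cd36 and -0.21 for Gas6. The Mfge8 call appeared without combined library 1 (adjusted p = 0.0335), a library outside this comparison that enters the shared estimate of the spread.

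With IFN-γ present, Remodelin gave 0 called genes of the 10 as well, against 0.364% of all genes, and Mfge8 at -0.89 ± 0.19 missed the threshold narrowly (edgeR adjusted p = 0.0501). At an unadjusted p under 0.05 there were 3 of the 10 (Mfge8, Scarb1 and Cd36), against 16.2% of all genes. Of the 10, DESeq2 and limma-voom each called Mfge8 alone, with 264 and 39 of all 13474 genes called. Scarb1 was at -0.43 ± 0.13 (adjusted p = 0.156), Gas6 at -0.28 ± 0.15 (0.353) and Cd36 at 0.74 ± 0.29 (0.225). Without combined library 1 the value was 0.12 for Cd36, -0.14 for Gas6 and -0.66 for Mfge8 (adjusted p = 0.147). Removal of the GC trend gave 0.47 for Cd36 and -0.10 for Gas6. The combined libraries lay wholly below the IFN-γ libraries for Mfge8 and Scarb1, 2 of the 10 against 15.6% of all genes, and wholly above for Cd36, 1 of the 10 against 12.2%.

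In the authors' deposited table of their own comparisons, Mfge8 was lower with Remodelin alone (log2 fold change -0.59, adjusted p = 0.018) and with both agents against IFN-γ (-0.75, adjusted p = 0.000898). The authors' deposited table also gave Scarb1 as lower with both agents against IFN-γ (-0.39, adjusted p = 0.0471) but not with Remodelin alone against control (adjusted p = 0.542). In the authors' deposited table Cd36 was at 0.51 with Remodelin alone (adjusted p = 0.0936) and at 0.33 with both agents against IFN-γ (adjusted p = 0.387). Both Remodelin comparisons share no library, so the lower Mfge8 and Scarb1 levels were seen in separate sets of 6 libraries, although 1 fit supplied the spread.

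IFN-γ alone moved none of the 10 genes past the threshold, and only 2 of all 13474 tested genes by edgeR. The lack of calls thus does not set the 10 genes apart. Against control there were 0 calls of 10 by edgeR and 0 by DESeq2, against 0.0148% of all genes by edgeR, and 1 of the 10 (Stab1) had an unadjusted p under 0.05, against 5.37% of all genes. Stab1 was at -0.54 ± 0.20 on the log2 scale (unadjusted p = 0.0142, adjusted p = 0.889). Axl (-0.20 ± 0.16, adjusted p = 0.903) and Gas6 (-0.22 ± 0.15, adjusted p = 0.889) were the other genes whose IFN-γ libraries lay wholly below control, 3 of the 10 against 8.51% of all genes. Cd36 (0.44 ± 0.29, adjusted p = 0.889) and Msr1 (0.38 ± 0.21, adjusted p = 0.889) lay wholly above, 2 of the 10 against 9.18%. Removal of the GC trend gave 0.10 for Cd36, 0.01 for Msr1, -0.09 for Gas6, -0.11 for Axl and -0.40 for Stab1. The authors' deposited table gave Stab1 at -0.45 (adjusted p = 0.0668) and Cd36 at 0.39 (adjusted p = 0.0639) for the same comparison.

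Averaged over both levels of Remodelin, IFN-γ again gave 0 calls of 10, by edgeR and by DESeq2, against 0.00742% of all genes by edgeR. An unadjusted p under 0.05 was reached by 4 of the 10, against 12.9% of all genes, and these were Stab1 (-0.42 ± 0.14, adjusted p = 0.31), Cd36 (0.53 ± 0.20, 0.331), Msr1 (0.34 ± 0.15, 0.369) and Marco (0.43 ± 0.20, 0.382). The 6 libraries with IFN-γ overlapped the 6 without it for all 10 genes, and 0.675% of all genes did not overlap. Without combined library 1 the value was 0.20 for Cd36 and 0.13 for Msr1, and removal of the GC trend gave 0.18, -0.00 and, for Stab1, -0.28. On top of Remodelin, IFN-γ gave 0 calls of 10 by edgeR and by DESeq2, against 0% of all genes by edgeR. There 1 of the 10 (Cd36, 0.61 ± 0.29, unadjusted p = 0.0459, adjusted p = 0.641) had an unadjusted p under 0.05, against 7.74% of all genes, and 0 of the 10 had groups that did not overlap, against 9.48%. That Cd36 value was -0.04 without combined library 1 and 0.26 after removal of the GC trend.

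Whether the Remodelin effect differed with IFN-γ was tested as an interaction, which called 0 of the 10 genes by edgeR and 0 by DESeq2, against 0.00742% of all genes by edgeR. At an unadjusted p under 0.05 there were 0 of 10, against 2.3% of all genes. The difference of the log2 fold changes was -0.19 ± 0.27 for Mfge8 (interval -0.72 to 0.34), -0.07 ± 0.19 for Scarb1 (-0.45 to 0.31), 0.17 ± 0.40 for Cd36 (-0.63 to 0.97) and 0.24 ± 0.28 for Stab1 (-0.32 to 0.80). These intervals leave room for differences as large as the Remodelin effect on Scarb1 itself, so equal effects were not shown. Leaving out combined library 1 gave -0.49 for Cd36, -0.01 for Mfge8, -0.03 for Scarb1 and 0.41 for Stab1.

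The balance between genes within a library differed between the groups. In length-scaled units the Mfge8 level was 2.51, 2.69 and 2.82 times that of Cd36 in the control libraries and 2.05, 1.66 and 1.85 times with IFN-γ. With Remodelin the ratio was 1.21, 1.37 and 0.836, and with both agents 0.243, 1.11 and 1.02. Control, IFN-γ and the libraries with Remodelin did not overlap in this ratio, while the Remodelin and combined libraries did. The ratio of Cd36 to Scarb1, both class B receptors, was 16.8, 16 and 13.1 in control, 20.2, 23.9 and 23.3 with IFN-γ, 24, 26.4 and 37.9 with Remodelin, and 96.2, 31.9 and 29.9 with both. Here too the control libraries were apart from all others and combined library 1 was the extreme. Between the TAM ligands, the Gas6 level was 5.85 to 7.52 times that of Pros1 in control, 3.88 to 6.79 with IFN-γ, 3.61 to 6.3 with Remodelin and 2.37 to 4.81 with both, and neighbouring groups overlapped. Between the TAM receptors, the ratio of Axl to Mertk had group means from 1.8 ± 0.21 with IFN-γ to 2.09 ± 0.611 in control, and the groups overlapped. No test was run on ratios. They were not corrected for the GC trend of the libraries, which ran partly along the groups. Transcript G and C was 56.2% for Mfge8, 38.4% for Cd36, 48.5% for Scarb1, 56.6% for Gas6 and 43.4% for Pros1. Removal of the trend took the average Remodelin value of Cd36 from 0.66 to 0.39 and that of Mfge8 from -0.79 to -0.63. For IFN-γ against control it took Cd36 from 0.44 to 0.10. How far the trend shaped the ratios was not tested.

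**Figure D4:**
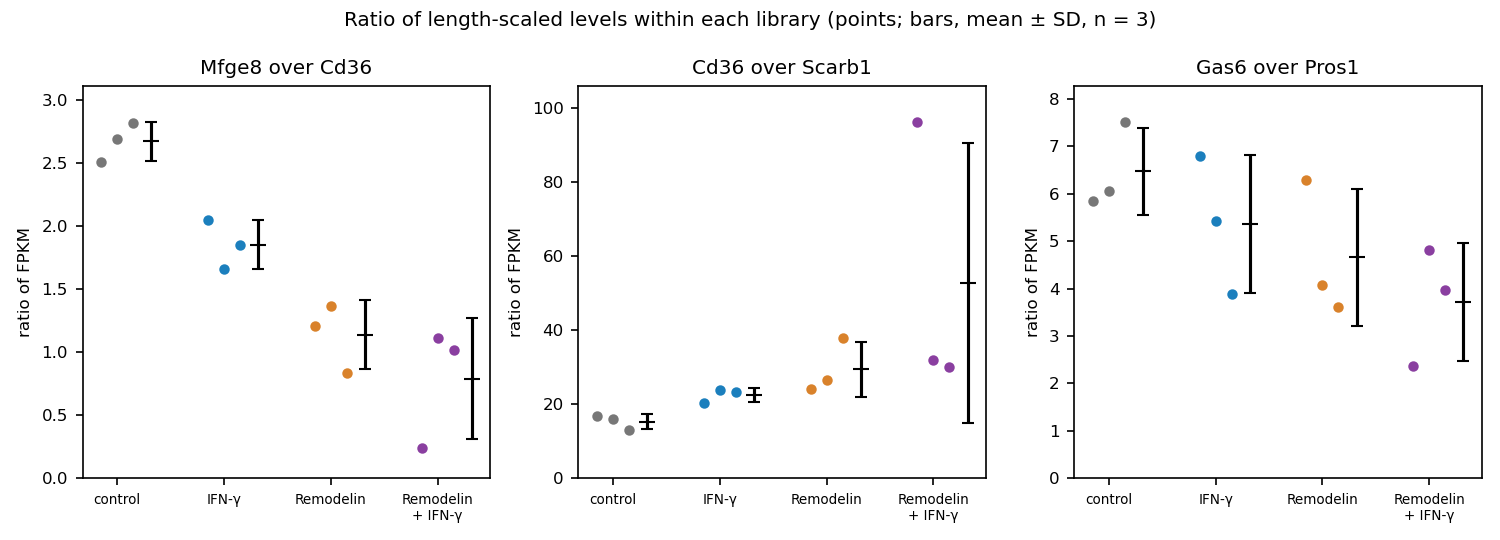
Ratio of FPKM values within each library (vertical axis, from 0) for Mfge8 over Cd36, Cd36 over Scarb1 and Gas6 over Pros1, in the 4 groups. Points are libraries and bars are the mean ± SD (n = 3). The Mfge8 to Cd36 ratio runs from 2.51 to 2.82 in control and from 0.243 to 1.37 in the 6 libraries with Remodelin. The ratios are not corrected for the GC trend of the libraries.

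Genes with the most similar pattern were sought for the called genes among 8848 tested genes with a mean of at least 5 CPM, by Pearson correlation of log2 CPM over the 12 libraries, given as a description only. Closest to Mfge8 were Dhcr7, which encodes the last enzyme of cholesterol synthesis (r = 0.984), and Pld3, which encodes a lysosomal nuclease (r = 0.983). Without combined library 1 these were 0.978 and 0.974. For Scarb1 they were Farsa, the phenylalanine transfer RNA synthetase subunit (r = 0.987), and Ckb, the brain-type creatine kinase (r = 0.987), at 0.981 and 0.988 without that library. The libraries differed in their trend with GC content, partly along the groups (Spearman 0.123 to 0.55 in control, -0.69 to -0.115 in the combined libraries). Genes that follow this trend or the groups thus correlate.

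Of 31 other genes of apoptotic cell engulfment, 28 passed the filter, and Timd4 (0 to 0.1165 CPM), Adgrb1 and Il10 did not. Averaged over IFN-γ, Remodelin lowered 6 of the 28 and raised 1, beside the 4.8% and 2.24% of all genes given above, with a median log2 fold change of -0.12. The list was chosen with earlier results of these data known, so these counts are a description and not an independent test. The complement C1q chains (C1qa, C1qb and C1qc), which form 1 protein that opsonises dying cells, were among the lower genes. C1qa went from 108.5 ± 14.2 CPM in control to 71.3 ± 15 with Remodelin, and from 105.1 ± 12.7 with IFN-γ to 58.7 ± 3.54 with both (log2 fold change -0.72 ± 0.12, adjusted p = 0.00202). C1qc, another chain of the same protein, was at 224.6 ± 25.1, 155.9 ± 22.3, 207.2 ± 10.5 and 149 ± 10.8 CPM in control, Remodelin, IFN-γ and both (-0.50 ± 0.10, adjusted p = 0.00887). Cd300lf, a receptor for phosphatidylserine, was at 76.9 ± 4.87, 53.8 ± 2.9, 77.4 ± 4.06 and 57.9 ± 4.61 CPM in the same order (-0.47 ± 0.09, adjusted p = 0.00816). The cystine transporter Slc7a11, known as a brake on efferocytosis in dendritic cells, was the gene that rose, from 6.11 ± 1.18 to 13.3 ± 4.29 CPM without IFN-γ and from 6.69 ± 1.04 to 11.6 ± 0.779 CPM with it (0.96 ± 0.17, adjusted p = 0.00332). The libraries with Remodelin lay wholly below those without it for 4 of the 28 (C1qa, C1qc, Cd300lf and Itgb5), against 3.42% of all genes. They lay wholly above for 1 (Slc7a11), against 1.24%. Removal of the GC trend kept the calls of C1qa, C1qc, Cd300lf and Slc7a11, at -0.50, -0.31, -0.44 and 0.74 in that order.

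The other 3 called genes are named after their values were seen. Itgb5 encodes the β5 chain of the αvβ5 integrin to which MFG-E8 binds, and it was at 301.8 ± 37.6 CPM in control, 208.8 ± 30.5 with Remodelin, 283.2 ± 23.8 with IFN-γ and 188.4 ± 42.5 with both (-0.56 ± 0.12, adjusted p = 0.0143). That Itgb5 call was lost without control 2 or IFN-γ 1 (adjusted p = 0.0542 to 0.0551). The partner chain Itgav (0.24 ± 0.18, adjusted p = 0.388) and the β3 chain Itgb3 (-0.02 ± 0.15, adjusted p = 0.947) did not pass the test. C1qb was at -0.62 ± 0.13 (adjusted p = 0.00947), or -0.43 after removal of the GC trend, and Calr, whose product calreticulin marks dying cells for uptake, at -0.44 ± 0.12 (adjusted p = 0.0377), a call that was lost in 8 of 12 fits without 1 library. Tyro3, the third TAM receptor and also singled out after its values were seen, had group means of 1.23 to 1.88 CPM and an average log2 fold change of -0.10 ± 0.26 (adjusted p = 0.835). In the separate comparisons of this list, Slc7a11 was called without IFN-γ (1.12 ± 0.24, adjusted p = 0.0328) and C1qa with it (-0.84 ± 0.17, adjusted p = 0.0363). The first of these calls was lost in 7 of 12 fits without 1 library and the second in 9, and the second also after removal of the GC trend (-0.61, adjusted p = 0.0805).

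**Figure D5:**
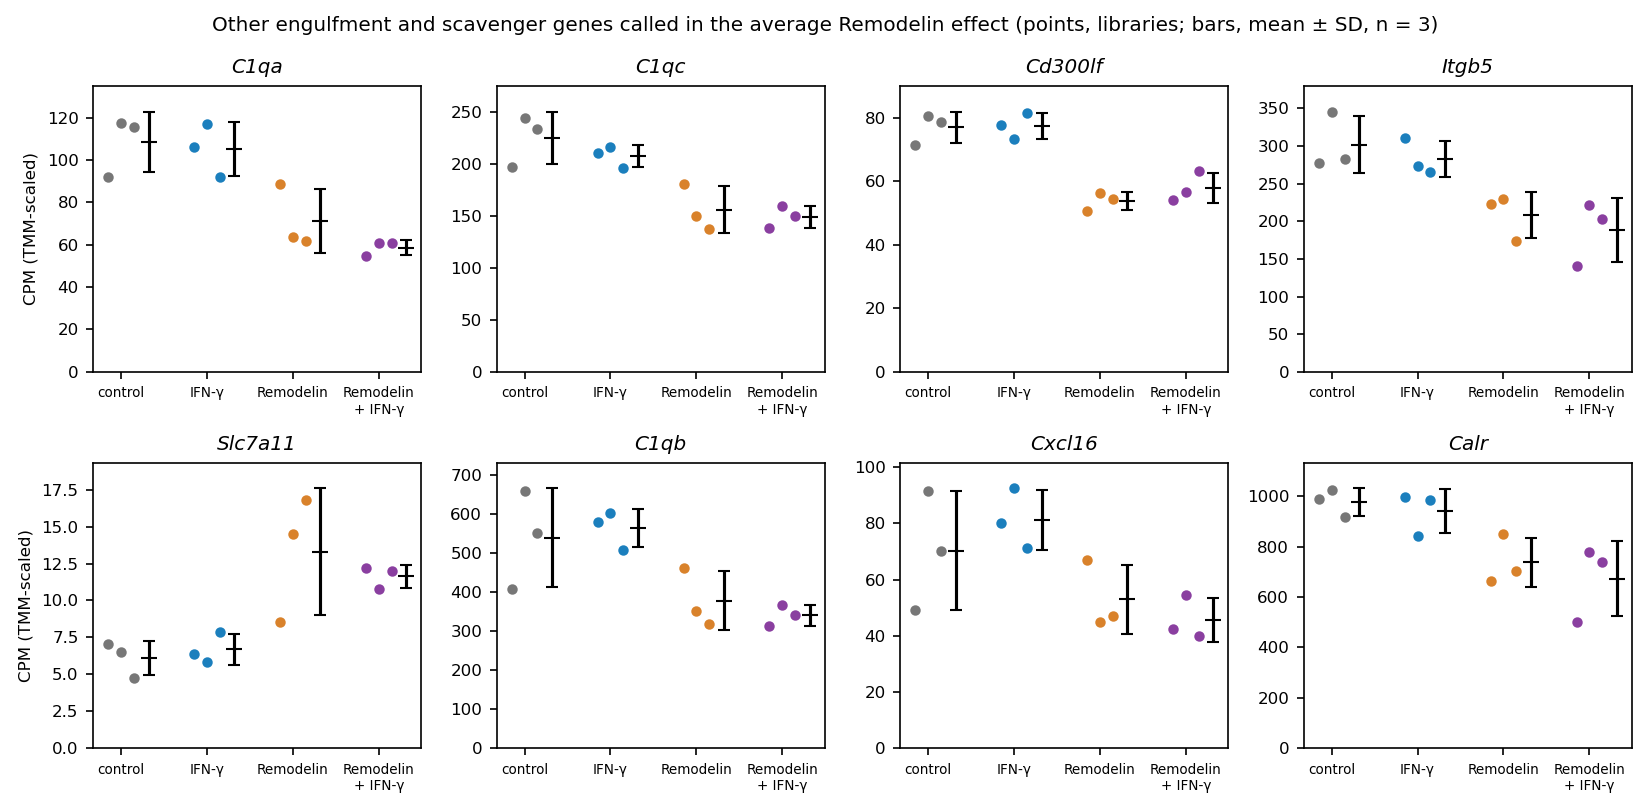
Level in CPM (vertical axes, from 0) of C1qa, C1qb, C1qc, Cd300lf, Itgb5, Calr, Slc7a11 and Cxcl16 in the 4 groups, the genes of the other engulfment and scavenger lists called in the average Remodelin effect apart from Cd163, which had too few counts. Points are libraries and bars are the mean ± SD (n = 3). Slc7a11 is higher and the other 7 are lower with Remodelin, as in the means of 6.11 and 13.3 CPM for Slc7a11 and 108.5 and 71.3 CPM for C1qa without IFN-γ.

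Of 18 other scavenger receptors and related uptake genes, 15 passed the filter, and Olr1, Scara5 and Megf10 did not. Remodelin lowered 1 of the 15 and raised 1 in the average, near the 4.8% and 2.24% of all genes, with a median log2 fold change of -0.09. Cxcl16, a membrane-bound chemokine that also binds oxidised lipoprotein, was at 70.3 ± 21.2 CPM in control, 53 ± 12.3 with Remodelin, 81.3 ± 10.6 with IFN-γ and 45.7 ± 7.71 with both (-0.62 ± 0.15, adjusted p = 0.0232). The Cxcl16 call was lost in 7 of 12 fits without 1 library (adjusted p = 0.0534 to 0.087). Cd163, the haemoglobin scavenger receptor, was called higher (adjusted p = 0.0285) but rested on 1 to 3 counts in each IFN-γ library and 7 to 14 counts in the others, so no fold change is given. The class B receptor Scarb2, the closest relative of Cd36 and Scarb1 in that list and named after its values were seen, was at 0.03 ± 0.09 (adjusted p = 0.841).

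Among 12 nuclear receptors and their partners that act on engulfment and lipid genes, 11 passed the filter, Ppara did not, and 0 were called in the average Remodelin effect by edgeR, with 3 of the 11 at an unadjusted p under 0.05, against 26.1% of all genes, and a median of -0.07. Nr1h3, the oxysterol receptor LXRα, was at -0.40 ± 0.13 (adjusted p = 0.063) and its partner Rxrb at -0.26 ± 0.12 (adjusted p = 0.176), which became -0.22 and -0.03 after removal of the GC trend. For the average IFN-γ effect, 0 genes of these 3 lists were called by edgeR. The smallest p-values in the engulfment list belonged to Anxa1 (0.53 ± 0.19, adjusted p = 0.322) and the adaptor Gulp1 (0.73 ± 0.26, adjusted p = 0.325). In the scavenger list they belonged to the β-glucan receptor Clec7a (0.62 ± 0.19, adjusted p = 0.31) and Scarf2 (-0.39 ± 0.16, adjusted p = 0.338). In the nuclear receptor list the lipid-sensing receptor Pparg was at 0.28 ± 0.12 (adjusted p = 0.353), and without combined library 1 it was at 0.17, Anxa1 at 0.25 and Clec7a at 0.34. Removal of the GC trend gave 0.30 for Anxa1, 0.40 for Gulp1, 0.31 for Clec7a and -0.22 for Scarf2. These uncalled values are given as measured, not as changes.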

How the data were processed

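RNA of mouse peritoneal macrophages was sequenced in 12 libraries, grouped by sample title into 4 groups of 3. The authors deposited raw read counts per gene, FPKM values, and their own log2 fold changes with p-values, per the file headers; their means per group were left out. The tools named, without roles, are featureCounts 1.5.0-p3, HISAT2 2.0.5 and CASAVA 1.8, per the submitters' processing notes. The build, annotation, strand setting and use of multi-mapped reads are each not given in the sources used here, so coordinates in the files are not printed, and genes that overlap others are uncertain.

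Counts of all 12 libraries entered 1 fit of edgeR 4.0.16 (quasi-likelihood test, TMM, default filter by group, R 4.3.3), with p-values adjusted by Benjamini-Hochberg over 13474 genes and called under 0.05. SE values come from the F statistic. CPM were scaled by TMM, FPKM were used for levels between genes, and log2 CPM had a prior count of 2. The common biological coefficient of variation was 18.6%. The test was also run on simulated counts with known fold changes. These had no GC trend and no outlying library, so they do not show how the test behaves under either. Alternatives were DESeq2 1.42.0, limma-voom (limma 3.58.1), DESeq2 size factors in edgeR, no filter, a filter of 50 reads in 3 libraries, a replicate block, only the compared groups, each library left out, control 1 and Remodelin 1 left out, and removal of the trend with GC content (a spline of 5 degrees of freedom, with GC content for 99% of tested genes). Leaving out Remodelin 1 and combined library 1, and the searches for GC box, TATA box and sterol regulatory element, were chosen after seeing the data. The 10 genes and all lists were chosen with earlier results of these data known. All 10 were named. Of each other list the rule named up to 4 called genes with the smallest p, or the 2 smallest p where none was called, and for each called member the 2 genes most like it, and 1 gene that it names is not reported here.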

Additional observations from a re-analysis of the deposited data

How the results depend on the processing

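Of 49 fold changes followed, 12 were called, and 6 of these (the average Remodelin effects on Mfge8, C1qa, C1qb, C1qc, Cd300lf and Slc7a11) kept direction and call in all alternatives. The number of the 10 genes called for Remodelin against control, 0, became 1 with no filter and with DESeq2, 2 without control 1 and Remodelin 1, 2 without Remodelin 1 and combined library 1, and 0 to 1 without single libraries. Over all genes the 114 calls became 283 of 24366 with no filter and 269 of 13474 with DESeq2. They became 1853 and 744 without those pairs of libraries, in the same order. With both agents against IFN-γ, 0 became 2 with no filter, 1 with DESeq2, limma-voom, either pair of libraries left out, or the GC trend removed, and 0 to 1 without single libraries. There the 49 calls over all genes became 271 of 24366 with no filter, 264 with DESeq2 and 39 with limma-voom. They became 464 and 108 without the pairs, in the order above, and 67 with the GC trend removed. For the average Remodelin effect, 2 became 4 with DESeq2 and without control 1 and Remodelin 1, 3 without Remodelin 1 and combined library 1, and 1 to 4 without single libraries. With no filter Cd36 was called and Scarb1 was not. Over all genes the 949 calls became 1378 of 13474 with DESeq2 and 3668 of 13666 without control 1 and Remodelin 1. They became 2427 of 13691 without Remodelin 1 and combined library 1, so calls rose in general. For the average IFN-γ effect, 0 became 1 with no filter, where 325 of 24366 genes were called. In the other 3 comparisons the count stayed 0. Leaving out single libraries moved the average Mertk value between -0.17 and 0.06, Marco between -0.13 and 0.09, Stab1 between -0.14 and 0.06, Msr1 between 0.07 and 0.34, Mfge8 between -0.87 and -0.66, Scarb1 between -0.42 and -0.33, Cd36 between 0.37 and 0.78 and Gas6 between -0.39 and -0.24.

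Signs turned 24 times, in 10 fold changes, none of them called. In the average Remodelin effect Mertk was 0.06 without control 1, 0.04 without Remodelin 1, 0.19 without both and 0.05 without Remodelin 1 and combined library 1. Marco was 0.09 without control 2, 0.07 without IFN-γ 1, 0.02 without Remodelin 3, 0.03 without combined library 3 and 0.09 with the GC trend removed. Stab1 was 0.06 without combined library 1, 0.03 without control 1 and Remodelin 1, 0.08 without Remodelin 1 and combined library 1 and 0.11 with the GC trend removed. Axl was 0.02 without Remodelin 1 and combined library 1 and 0.01 with the GC trend removed, and Pros1 and Msr1 were both -0.00 with the GC trend removed, as was Msr1 in the average IFN-γ effect. Without combined library 1, alone or with Remodelin 1, Cd36 was -0.04 and -0.10 for both agents against Remodelin (up to 0.86 without other libraries), and -0.49 and -0.55 in the interaction (up to 0.41). The interaction for Scarb1 was 0.03 without control 1 and Remodelin 1 and 0.05 without Remodelin 1 and combined library 1. The cause was not tested.

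With a block on replicate number, the average Remodelin effect again called 2 of the 10 (Mfge8 -0.80, adjusted p = 0.00501, and Scarb1 -0.39, adjusted p = 0.0458) and the other comparisons 0. Over all genes that average then called 578 of 13474, 417 lower and 161 higher. No pairing by number was seen: deviations of same-numbered libraries correlated from -0.547 to 0.261, over 0.1 in 5 of 18 pairs, and 2 of 12 libraries correlated best with one of their own number. The GC trends of single libraries could hide a pairing, so it is not excluded. Over all genes, calls for the average Remodelin effect ran from 298 without control 2 to 3668 without control 1 and Remodelin 1, around 949. For Remodelin against control they ran from 20 to 1853 around 114, for both agents against IFN-γ from 10 to 464 around 49, for IFN-γ against control from 1 to 52 around 2, for both against Remodelin from 0 to 6 around 0, for the interaction from 0 to 19 around 1, and for the average IFN-γ effect from 0 to 325 around 1. The order of group means was the same in CPM and FPKM for 9 of the 10 genes, Axl being the exception.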
